A study of Mus musculus with 2 samples.

Results

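The regions described here are 7482 KAT8 peaks of untreated mouse macrophages that lie far from protein-coding genes and recur after stimulation. They were selected on measured values. Each is a peak of the untreated list that overlaps a peak of the R848 list by at least 1 bp, with a deposited fold over background under 10. Its summit lies outside every protein-coding gene and more than 10000 bp from every end of one, by RefSeq on GRCm38.p6, the assembly of mm10. They make up 14.4% of the 52001 untreated peaks. Over all untreated peaks 31.0% overlapped an R848 peak, so the overlap and the fold of these regions are descriptions of the choice and not findings. Of 25911 untreated peaks far from genes, 7614 were shared and 132 of those were left out for a fold of 10 or more.

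CUT&Tag places a transposase at a protein through an antibody, so that DNA near the protein is cut and tagged, and here the antibody was against KAT8. The cells were wild-type bone marrow-derived macrophages grown in 20 ng/ml M-CSF, the growth factor of this lineage. One group was untreated and the other received R848, an agonist of the receptor TLR7, at 100 ng/ml for 2 h. Each group had 1 library, so no difference between them has a replicate check and no p-value is given. The labels state no strain, age or number of animals.

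KAT8, a MYST family enzyme that acetylates lysines, acts in the MSL and NSL complexes. The NSL complex is known mainly from promoters of housekeeping genes, and MSL is the complex through which the fly orthologue of KAT8 acetylates histone H4 on the male X chromosome. DNA far from genes holds enhancers, promoters of non-coding RNA genes and long tracts of repeated sequence.

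A q-value of at most 0.05 was reached by 4545 members (60.7%) in the untreated list, where 36.3% of all peaks reached it. The R848 partner of a member is its overlapping R848 peak, or the one of highest R848 fold where several overlapped. These partners reached a q-value of at most 0.05 in 4666 cases (62.4%), against 41.1% of all R848 peaks. Both peaks of the pair passed in 3250 cases (43.4%) and neither did in 1521 (20.3%). These shares follow from the choice, since sharing rises with strength. Folds and q-values are the authors' own and are set side by side without being read as a change, because depth and background differ between the lists. The depth of the libraries is known only through the lowest local background among their peaks, which was 3.37 overlapping fragments without and 2.62 with R848. No control or accessibility library was analysed, so binding of KAT8 and cutting of accessible DNA cannot be told apart. Peaks do not report expression, so the labelled cell type could not be checked by markers.

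The places where sequence could be read under these peaks were promoters of long non-coding RNA (lncRNA) genes, of which 5 are shown. The first 4 lay under members of high fold: the 3 promoters with the highest fold at their peak, and Snhg5, a snoRNA host gene, which was picked after its values were seen. AA388235, picked in the same way, is shown because it shared sequence with the most other promoters among those overlapped. Each runs 5′ to 3′ on the strand of the gene, from 250 bases before to 50 bases after the start of transcription, from RefSeq on GRCm38.p6, and capitals mark CpG dinucleotides.
D130051D11Rik, chr15:85634346-85634645, plus strand: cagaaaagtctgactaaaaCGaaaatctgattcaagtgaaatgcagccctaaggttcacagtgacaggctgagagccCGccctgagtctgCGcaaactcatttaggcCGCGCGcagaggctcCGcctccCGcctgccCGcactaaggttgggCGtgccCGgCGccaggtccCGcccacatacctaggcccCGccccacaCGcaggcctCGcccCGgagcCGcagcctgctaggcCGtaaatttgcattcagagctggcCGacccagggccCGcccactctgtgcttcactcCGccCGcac
Chaserr, chr7:73558346-73558645, minus strand: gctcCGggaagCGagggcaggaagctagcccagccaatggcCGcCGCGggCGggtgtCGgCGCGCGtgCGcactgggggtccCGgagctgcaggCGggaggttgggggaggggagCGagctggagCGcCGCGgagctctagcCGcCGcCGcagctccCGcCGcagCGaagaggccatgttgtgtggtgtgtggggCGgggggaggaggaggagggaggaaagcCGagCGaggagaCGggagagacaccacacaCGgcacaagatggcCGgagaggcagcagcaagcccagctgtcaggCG
Gm42092, chr11:104073090-104073389, minus strand: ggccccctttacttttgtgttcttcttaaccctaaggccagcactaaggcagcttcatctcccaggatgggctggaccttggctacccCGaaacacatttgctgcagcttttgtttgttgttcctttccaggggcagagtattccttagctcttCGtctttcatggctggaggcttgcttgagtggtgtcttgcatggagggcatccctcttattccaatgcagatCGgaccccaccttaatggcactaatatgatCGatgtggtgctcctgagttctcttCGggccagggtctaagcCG
Snhg5, chr9:88522848-88523147, minus strand: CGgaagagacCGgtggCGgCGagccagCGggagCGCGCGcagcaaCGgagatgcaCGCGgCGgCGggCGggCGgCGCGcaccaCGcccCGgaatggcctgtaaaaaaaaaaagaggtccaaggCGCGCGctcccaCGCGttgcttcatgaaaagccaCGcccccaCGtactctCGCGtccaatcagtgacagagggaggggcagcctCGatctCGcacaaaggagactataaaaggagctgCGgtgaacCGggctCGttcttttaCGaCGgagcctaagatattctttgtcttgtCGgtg
AA388235, chr17:33981242-33981541, plus strand: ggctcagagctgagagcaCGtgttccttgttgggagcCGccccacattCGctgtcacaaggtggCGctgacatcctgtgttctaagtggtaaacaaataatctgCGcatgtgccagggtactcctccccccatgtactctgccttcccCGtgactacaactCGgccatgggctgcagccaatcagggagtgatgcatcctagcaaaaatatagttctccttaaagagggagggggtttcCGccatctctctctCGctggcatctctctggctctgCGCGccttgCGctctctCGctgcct

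The member at D130051D11Rik (chr15:85634391-85635173) had a fold of 8.47 in the untreated list, its R848 partner had 6.08, and the promoter holds 23 CpG. Chaserr is a lncRNA gene next to the chromatin remodeller gene Chd2. Its member (chr7:73558187-73559035, 16851 bp from Chd2) had folds of 7.55 and 7.46, with 30 CpG in the promoter. The member at Gm42092 had 7.1 and 5.25 over a promoter of 6 CpG, so high fold was not limited to promoters rich in CpG. At Snhg5 the folds were 5.04 and 3.87, in a promoter of 36 CpG. At AA388235 they were 3.43 and 2.70, and at least 1 stretch of 24 bases of its promoter also occurred in 23 promoters of other genes.

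In all, 39 members (0.521%) overlapped 43 promoters of 40 lncRNA genes, among 6022 promoters of the table that lie in the same far territory. Their median fold was 3.30, and 27 of the 39 reached a q-value of 0.05. The overlapped promoters had a median of 16 CpG (quartiles 5 and 25), and 23 of 43 (53.5%) had at least 15. Among 5918 far promoters with no far untreated peak the median was 3 CpG, and 2.04% had at least 15. The 61 far promoters under a far peak of the untreated list only stood between, with a median of 4 and 11.5%. Protein-coding promoters had a median of 13 CpG, and 46.8% had at least 15. Counted by promoter, shared peaks were thus found at the lncRNA promoters whose CpG content is like that of protein-coding promoters more often than at the others. These promoters are not all separate observations. The starts of 9330159M07Rik (26 and 30 CpG) and Gm26611 (25 CpG) lay under the same member, with a −log10 q of 0.462. Some promoters with at least 15 CpG, such as Gm5636 and Gm30645, also shared sequence with promoters of other genes, while others, such as D130051D11Rik and Chaserr, did not. The part of such sequence in the CpG difference was not tested.

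**Figure D1:**
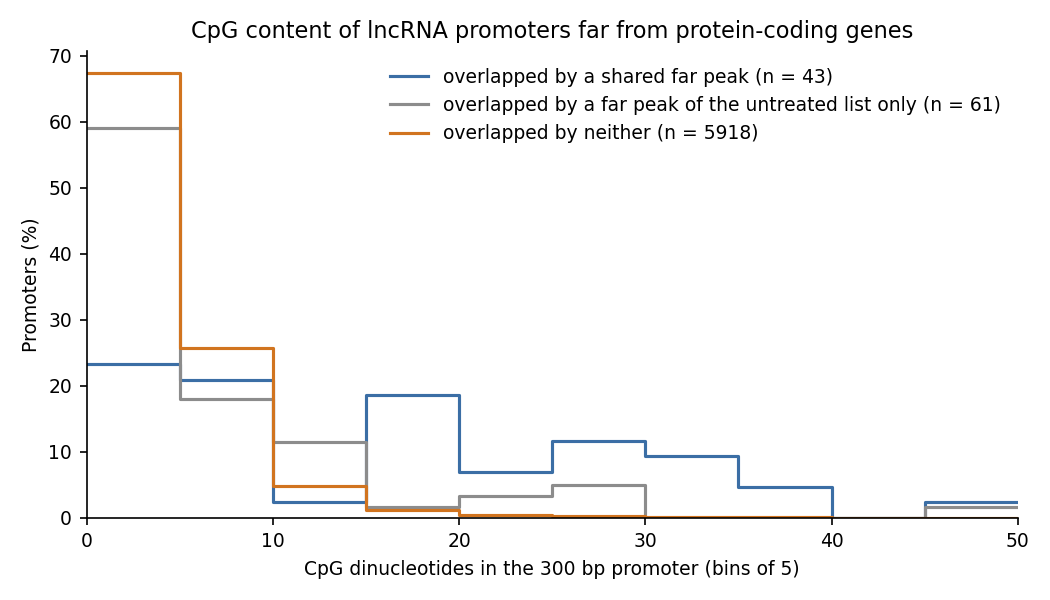
Share of 300 bp lncRNA promoters far from protein-coding genes (y axis, percent) by number of CpG dinucleotides (x axis, bins of 5), for the 43 overlapped by a shared far peak, the 61 overlapped by a far peak of the untreated list only and the 5918 overlapped by neither. The promoters without a peak lie mostly under 5 CpG, while 53.5% of those under a shared peak have at least 15.

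The letters GGGCGG, the core bound by Sp and KLF factors, occurred on either strand in 53.5% of the promoters under members, in 7.98% of the far promoters with no far peak and in 35.7% of all promoters of the same length. These letters contain a CpG, so this count and the CpG count share bases. GAGGAAGT, a form of the ETS motif bound by PU.1, occurred in 11.6%, 3.60% and 3.20%. Those under members were 5 promoters of 3 genes, since 3 of them are neighbouring starts of Gm31619 under the same peak and the others belong to 5031425F14Rik and Dleu2. Counted by gene, it was found for 3 of 40 (7.5%), 4.12% and 3.69%, and GGGCGG for 22 of 40 (55%), 8.85% and 38.2%. TGANTCA, the AP-1 motif, occurred in 9.30%, 10.9% and 7.81%. GGGANTTCC, a form of the NF-kB motif, occurred in 0 of 43 promoters, in 75 (1.27%) and in 551 (1.68%). At shares this low, 0 of 43 does not show that it is rarer under members. TGACGTCA, the cAMP response element, was in 1 promoter under a member, that of 4930515B02Rik (2.33%, against 0.760% and 1.79%). The motifs were counted separately. Matches say only that the letters are present. Sequence that recurs in promoters elsewhere was also more frequent: 19 of 43 (44.2%) shared a stretch of 24 bases, on either strand, with the promoter of another gene on another chromosome or at least 1 Mb away, against 18% of far promoters with no far peak.

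The median width of members was 383 bp (quartiles 270 and 558), against 252 bp for far peaks of the untreated list only, 388 bp for shared peaks inside genes and 472 bp for shared peaks within 1000 bp of a gene end. The narrowest width, 200 bp, was found for 581 members, and 297 (3.97%) reached 1000 bp. The median fold was 3.20 (quartiles 2.75 and 3.66), at percentile 73.8 of the untreated list, as it was for shared peaks inside genes, and shared gene-end peaks had 3.66. The median number of overlapping fragments at the summit was 14 for members, 11 for far untreated-only peaks and 16 for shared gene-end peaks.

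The widest member, of 4175 bp (chr17:39843105-39847279), was also 4190 bp wide in the R848 list and covered 926 bp of Rn18s-rs5, an annotated pseudogene related to 18S ribosomal RNA. Its fold was 2.37 with a −log10 q of 1621 (2.39 and 1480 in the R848 list), and its local background could not be solved. The next widest (chr1:24613213-24616123, 2911 bp) covered all 681 bp of the pseudogene Gm10925 and rested on 553 fragments over a background of 140. The third lay beside the abundant nuclear lncRNA gene Malat1 (chr19:5793295-5795409, 2115 bp). Its background was 7.18.

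The R848 partners had a median width of 379 bp and a median fold of 3.32. Summits of the pair lay a median of 110 bp apart, within 100 bp for 46.7% and within 250 bp for 79.2%. The median overlap was 94.1% of the narrower peak. Correspondence was not always one to one, since 207 members overlapped several R848 peaks and 250 R848 peaks lay over several members.

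The 10 members of highest fold ranged from 9.41 to 9.95, just under the limit of 10, and their R848 partners from 5.90 to 10.7. The highest (chr2:181918486-181918832, 27803 bp from Gm40035) had folds of 9.95 and 10.2 and summits 3 bp apart. It held 167 fragments over a background of 15.9. A member of the same fold lay on chromosome Y near Gm52481 (9.95 and 8.90), and the next near the olfactory receptor gene Olfr161 on chromosome 16 (fold 9.91). These 3, with the member near Ero1b (9.62 and 10.7), stood on backgrounds of 9.50 to 21.8 fragments.

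The other 6 stood on backgrounds of 3.37 to 3.92. Members of equal fold (9.84) with 42 fragments lay 21081 bp from Ryk, a receptor for Wnt ligands, 280233 bp from Rspo3, a secreted enhancer of Wnt signalling, and 18769 bp from Ktn1. Their R848 partners had 9.40, 6.63 and 7.46. The remaining ones lay near Tnks (9.61 and 8.57), the tankyrase gene, Med10 (9.55 and 5.90), a Mediator subunit gene, and Cd24a (9.41 and 8.72), a surface glycoprotein gene. All 10 had a −log10 q of at least 26.1 in the untreated list. At the limits of the rule, the far shared peaks just outside had folds of 10.1, 10.1 and 10.2. Members just inside the distance limit lay 10004, 10037 and 10081 bp from Gm46935, Vmn2r32 and Frmd8, and those just outside lay 9995, 9996 and 10000 bp from Nrsn1, Iigp1 and Btbd35f6.

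Of the 25779 far untreated peaks with a fold under 10, 29.0% were shared (95% exact binomial interval 28.5 to 29.6). The share was 52.4% at gene ends (51.1 to 53.7), 26.3% inside genes (25.7 to 27.0) and 27.1% at 1000 to 10000 bp from gene ends (25.7 to 28.5). These intervals, like those below, cover counting error only. Sharing followed significance: in the lowest decile of −log10 p of the untreated list 10.1% of far peaks were shared and in the highest 84.0%. In the highest decile 92.5% of gene-end peaks and 86.0% of peaks inside genes were shared. Peaks of equal p-value were kept together, so the deciles were unequal in size, with 471 to 4666 far peaks each. Far peaks were shared less often than gene-end peaks in 8 of the 10 deciles. The exceptions, deciles 3 and 5, held only 33 and 74 gene-end peaks, and the intervals overlapped those of far peaks. Far peaks were shared more often than peaks inside genes in deciles 1 to 9.

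Chromosome X stood apart in this share, which is given as a description because the overlap chose the members. Of 1323 far peaks on X, 572 were shared (43.2%, 40.5 to 46.0), against 28.5% on the autosomes (27.9 to 29.0), where single chromosomes ran from 24.3% on chromosome 12 to 32.5% on chromosomes 9 and 16. On Y it was 19.6% (16.3 to 23.1). The share was higher on X than on the autosomes in deciles 1 to 9 of −log10 p, with intervals that did not overlap in deciles 2, 4, 6 and 8, and equal in the highest (84.0% and 84.1%). In the R848 list 53.5% of far peaks on X (50.5 to 56.5) and 33.1% on the autosomes (32.5 to 33.8) overlapped an untreated peak. Inside genes 142 of 279 peaks on X were shared (50.9%) against 25.9% on the autosomes. At gene ends the values were 25 of 45 (55.6%, 40.0 to 70.4) and 52.4%, which did not differ beyond counting error. Local background moved with this: 76.4% of members on X and 54.7% of those on autosomes stood at the lowest background of the library, and the part of that in the result was not tested.

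**Figure D2:**
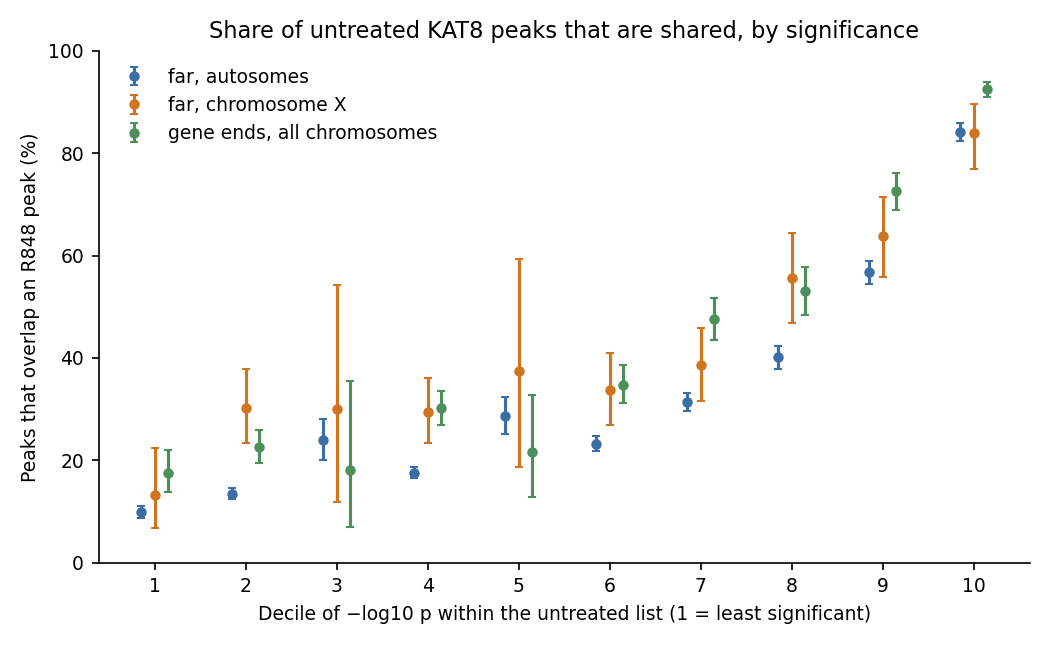
Percentage of untreated peaks that overlap an R848 peak (y axis) by decile of −log10 p within the untreated list (x axis), with 95% exact binomial intervals that cover counting error only, for far peaks on the autosomes, far peaks on X and gene-end peaks. Far peaks on X lie above those on autosomes in deciles 1 to 9 and meet them at 84.0% and 84.1% in the highest. Deciles are unequal in size because peaks of equal p-value were kept together.

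Density was taken per Mb of far territory, the sequence outside protein-coding genes and more than 10000 bp from their ends, between the first and last peak of each chromosome. The 1376 Mb of it held 5.44 members per Mb. Autosomes had 5.74 per Mb, from 4.17 on chromosome 19 and 4.60 on chromosome 10 to 6.82 on chromosome 5, 6.83 on chromosome 4 and 7.03 on chromosome 7. Without clusters of 5 or more members, chromosome 7 had 6.39 and chromosome 8 fell from 6.53 to 5.25. X had 5.30 per Mb (572 members) and Y 1.28 (107 members). Thus X was close to the autosomes in shared far peaks, although it held fewer far untreated peaks of any kind (12.3 against 20.2 per Mb). The ratio of X to the autosomes was 0.923 (0.846 to 1.01). Among members at the lowest background only it was 1.29 (1.16 to 1.42), still over all far territory. This second ratio follows from the shares of members at that background, 76.4% on X and 54.7% on the autosomes. It does not compare densities at matched background. At gene ends shared peaks were scarcer on X: 2.59 per 100 protein-coding genes against 14.0 on the autosomes. None of these values takes account of how many copies of X, Y or an autosome a cell holds. The part of copy number in the differences between chromosomes was not tested.

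**Figure D3:**
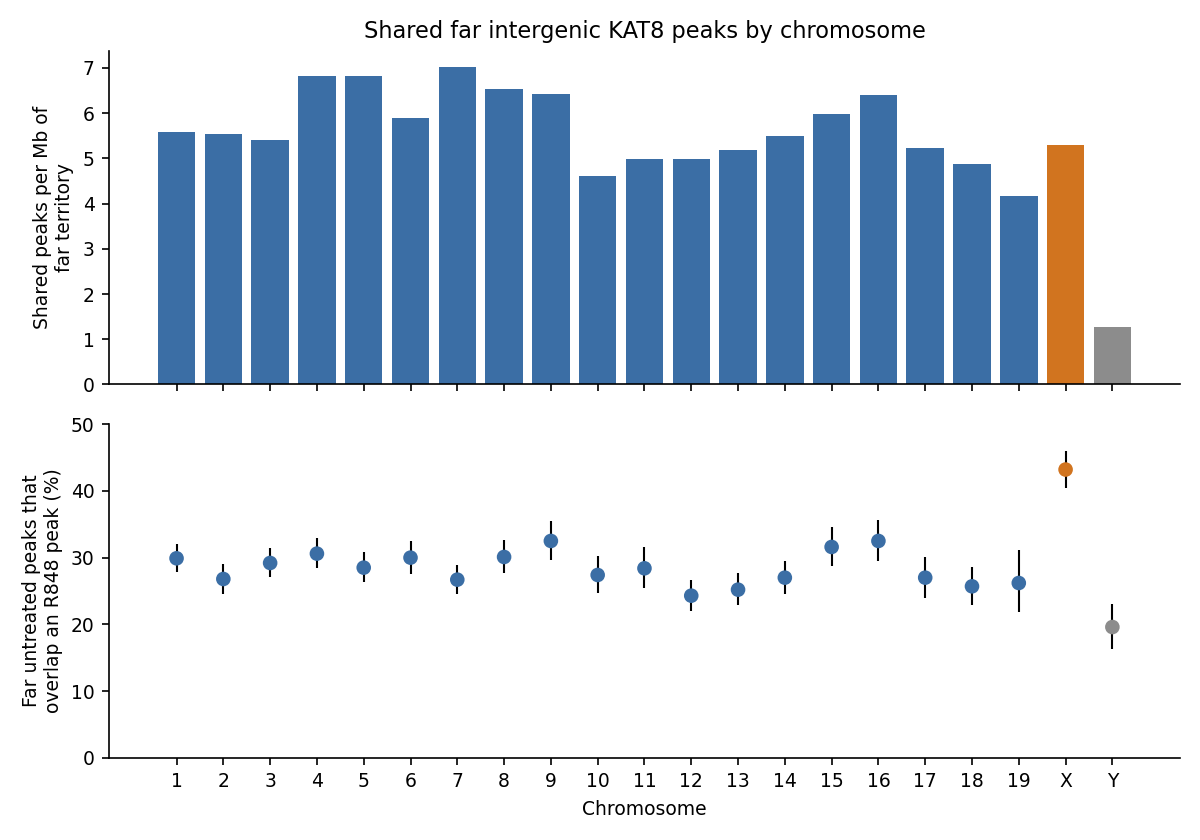
Members per Mb of far territory (upper bars) and percentage of far untreated peaks that overlap an R848 peak (lower points, with 95% exact binomial intervals that cover counting error only) for each chromosome. X has a density of 5.30 per Mb, within the range of the autosomes, but the highest shared percentage, 43.2%, and Y has the lowest values of both.

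Members did not thin out much with distance. They lay a median of 118598 bp from the nearest protein-coding gene end (quartiles 38863 and 311423). On the autosomes density was 6.14 per Mb at 10000 to 25000 bp, 5.77 to 5.91 from there to 250000 bp, 5.75 up to 500000 bp, 5.08 up to 1000000 bp and 5.12 beyond. Far untreated peaks of any kind thinned more, from 22.0 to 16.6 per Mb, and the shared percentage over the same bins went from 27.9% to 30.8%. The 5 farthest members lay 2056588 to 2114815 bp from a gene. The farthest (chr1:102605298-102605679, near Cntnap5b) had folds of 4.12 and 3.35. Next came members near Pik3c3 (4.81 and 2.49), Pcdh17 (4.58 and 3.22), Olfm4 (2.98 and 3.32) and Pik3c3 again (2.52 and 3.04). All 5 stood alone and at the lowest background.

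Within 12.5 kb, a joining distance often used for enhancers, 2994 members (40.0%, 38.9 to 41.1) had another member. Of the far peaks of the untreated list only, which are more numerous, 39.6% had another of their kind that near, and of those of the R848 list only 34.3%. The 2994 members formed 1272 clusters, of which 1031 were pairs, 183 triplets, 28 groups of 4 and 30 groups of 5 or more. With 5000 bp the share was 21.6% and with 25000 bp 47.1%. Among members with a q-value of 0.05 or less in both lists it was 26.1% within 12.5 kb, and there were fewer such members to have as neighbours. The 30 largest groups held 271 members and differed from the rest in local background, with a median of 12.4 fragments against 3.37 for members that stood alone. Only 2.58% of the 271 stood at the lowest background, against 64.9% of single members. Their median fold was lower (2.80 against 3.20), yet 89.7% had a q-value of 0.05 or less against 58.8%. Without these 30 clusters 37.8% of members had a neighbour within 12.5 kb, and among members at the lowest background 24.3% did.

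**Figure D4:**
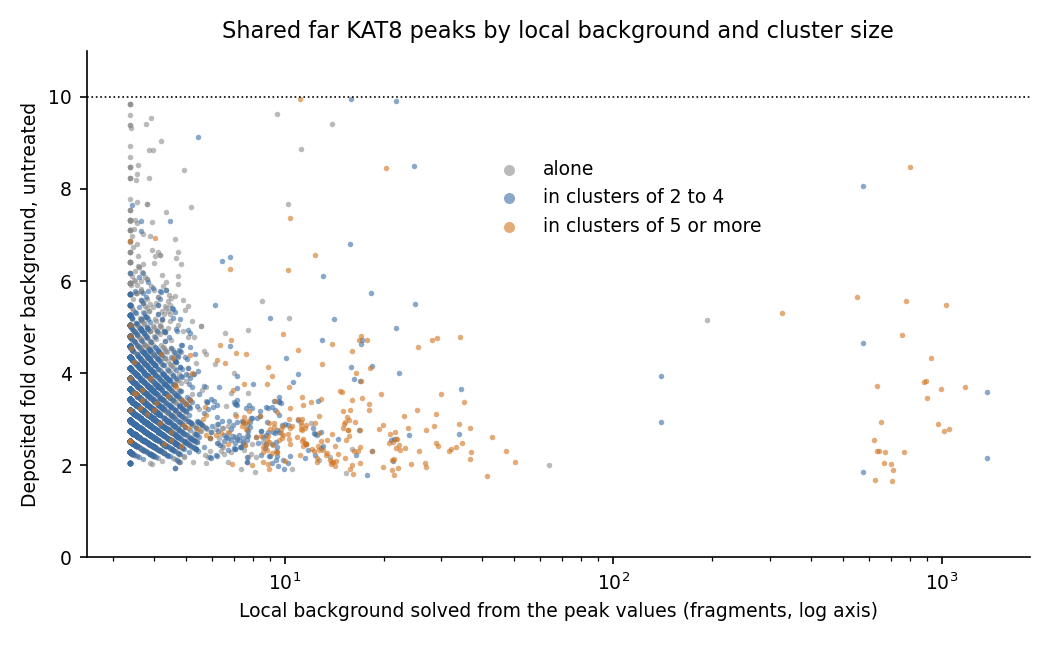
Deposited fold in the untreated list (y axis) against the local background solved from fold and p-value (x axis, fragments, log axis) for the members with a solved background, coloured by the size of the cluster they belong to, with the limit of 10 as a dotted line. Members in clusters of 5 or more spread towards higher backgrounds, and those beyond 500 fragments come mostly from 1 cluster on chromosome 9.

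The largest cluster held 28 members in 38120 bp at the start of the assembled chromosome 9 (chr9:3000168-3038287), 297201 bp or more from Alkbh8, a tRNA modifying enzyme gene. Its folds ran from 1.67 to 8.58, its median background was 760 fragments, and all 28 members had a q-value of 0.05 or less in both lists. The lowest background of the untreated library was 3.37. Whether fragments here, and in the other clusters of high background below, come from repeated sequence was not tested. The q-values of these clusters therefore do not show dense binding of KAT8. Of the 5 members of highest −log10 q, 4 lay there. Across the set, 101 members lay within 200 kb of the first peak of a chromosome. One of the 28 lay 639 bp from the gene of a microRNA, Mir101c, the only microRNA gene within 1000 bp of a member summit. Its mature sequence (chr9:3038680-3038698, minus strand, GRCm38.p6, from RefSeq) is shown with the seed, bases 2 to 8, in capitals.
mmu-miR-101c: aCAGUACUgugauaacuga

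The second cluster had 21 members in 62096 bp (chr7:59717159-59779254) inside Snhg14, a long imprinted transcript that hosts snoRNA genes, and it spanned 25 annotated snoRNA genes. Its folds ran from 2.38 to 7.37 with a median of 3.59, the R848 partners had a median of 4.03, and the median background was 13.9. Another cluster of 8 (chr7:59857701-59896507) lay farther along Snhg14 over genes of the Snord116 family. Snhg14 held 35 members in all, the most of any non-coding gene, and Snurf, an imprinted gene of the same locus, was the nearest protein-coding gene to 32.

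Chromosome 8 held 9 of the 30 clusters, and 8 of those, with 77 members, lay between 20003137 and 20835426 near the predicted genes 9530057J20Rik, Gm15319, Gm40469 and Gm21119 and near the beta-defensin gene Defb33. The 3 clusters among the 8 largest had 15, 15 and 11 members, with median folds of 2.77, 2.57 and 2.79 over median backgrounds of 15.6, 21.2 and 9.32. The third largest cluster of all, with 19 members, lay on chromosome 1 near Slc16a14, a monocarboxylate transporter family gene (chr1:84955144-85011887, median fold 2.80). The sixth, with 14, lay on chromosome 6 between Gm40363 and Pdia4, which encodes a protein disulphide isomerase (median background 32.7). The eighth, with 10, lay near the end of Y over Mid1-ps1 and Gm33272 and had the highest median fold of these 8 (3.95). The R848 partners in these 8 clusters had median folds of 2.48 to 4.03.

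The distances between neighbouring members were uneven. Of 1722 gaps between neighbouring summits of up to 12.5 kb, 530 (30.8%, 28.6 to 33.0) were 5000 to 6200 bp long. Windows of the same size on either side held 81 gaps (3000 to 4200 bp) and 62 (7000 to 8200 bp), so the window held 7.41 times their mean. It was chosen after the distances were seen. The median of the 530 was 5565 bp (quartiles 5340 and 5807). Among members at the lowest background the share was 43.5% (39.2 to 47.7), and without the clusters of 5 or more it was 34.2% (31.8 to 36.6); it was thus as large without the clusters of high background. Among members with a q-value of 0.05 or less in both lists it was 20.0% (16.6 to 23.7). With a −log10 q of at least 5 in both lists it was 4.40% (1.21 to 10.9). These settings kept 3250 and 475 members, and only gaps between kept members were counted. With overlap of 50% of both peaks, which kept 4609 members, the share was 29.4% (26.0 to 32.9). The spacing was thus less frequent among gaps between members significant in both lists, and the reason was not tested. Of the full set of members in gaps of 5000 to 6200 bp, 65.1% had a q-value of 0.05 or less in the untreated list. Among all members this was 60.7%. A further 442 gaps were at most 1000 bp, of which 233 joined members under the same R848 peak.

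The R848 partners overlap their members by the rule, so their distances follow from those of the members and are no second observation. Shared far R848 peaks had 31.6% of such gaps in the window (29.4 to 33.9), and the partners of 483 of the 530 member pairs (91.1%) were 5000 to 6200 bp apart. Far peaks of 1 list only had lower shares: 12.9% (11.9 to 14.0) in the untreated list and 11.9% (10.7 to 13.1) in the R848 list. This was 1.60 and 1.38 times the flanking windows. In counts these were 538 of 4155 gaps and 331 of 2791, against 530 of 1722 for members. Such peaks are more numerous than members, and the part of their density in the lower shares was not tested. Shared peaks inside genes had 21.4% (18.6 to 24.4) and shared gene-end peaks 8.33% (4.63 to 13.6). The 1054 members in such gaps (14.1%) were on all 21 chromosomes, 9.49% of them on X against 7.34% of other members. Their median width was 417 bp against 377 bp, and their median fold was 3.20 against 3.18. What sequence lies between them was not analysed here, since no genome of mm10 was used.

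**Figure D5:**
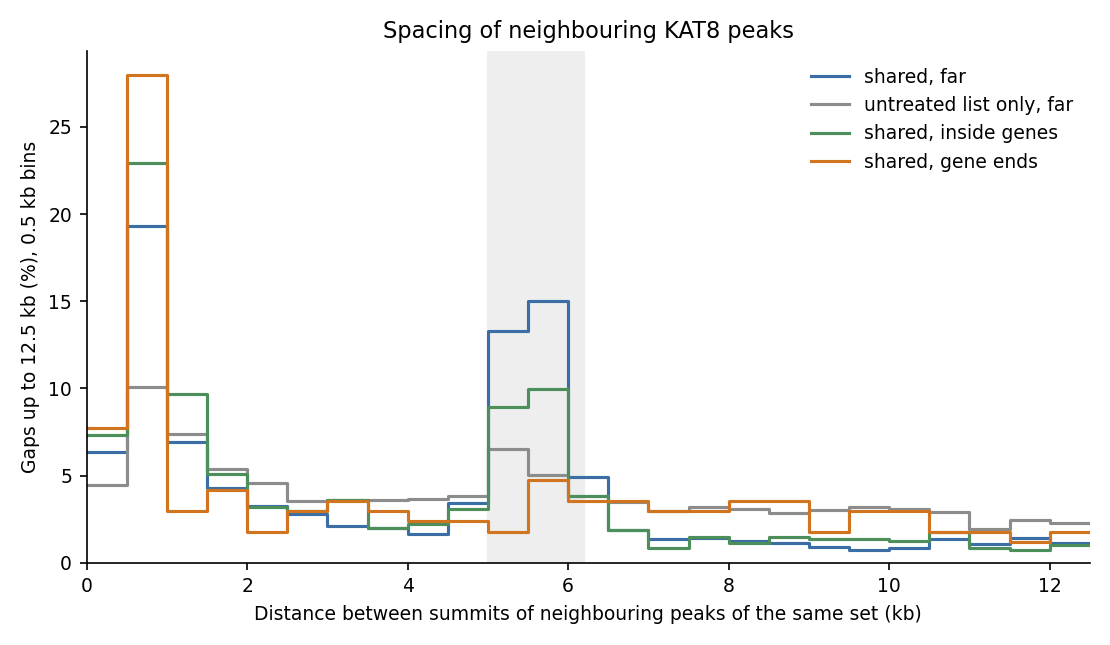
Distances between summits of neighbouring peaks (x axis, kb) as a percentage of the gaps up to 12.5 kb in each set (y axis, 0.5 kb bins), for shared far peaks, far peaks of the untreated list only, shared peaks inside genes and shared gene-end peaks; the shaded band is 5 to 6.2 kb. Shared far peaks have 30.8% of these gaps in the band and gene-end peaks 8.33%.

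The following 4 pairs in this range were picked as examples after their values were seen. Near Erbb4, a receptor tyrosine kinase gene, the members were 5926 bp apart with untreated folds of 7.30 and 4.35 and R848 folds of 4.52 and 3.32. Near the zinc finger gene Zic1 they were 5468 bp apart with 4.35 and 4.81, then 4.70 and 3.59. The pair near Reg3g, an antimicrobial lectin gene, was 5519 bp apart with 4.03 and 4.28, then 3.59 and 4.42. That near Adgrl3, an adhesion receptor gene, was 5930 bp apart with 4.12 and 5.04, then 3.87 and 2.76. The R848 peak of 2.76 had a −log10 q of only 0.581.

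Each member was given the protein-coding gene with the nearest end. In all 2971 genes were nearest to a member, 23.1% of the 12856 genes that are nearest to some far territory. A single member was found for 1515 of them, while 394 had at least 5 and 89 had at least 10. Those 89 took 1252 members. The genes with the most members were of 3 kinds. Pcdh7, a protocadherin gene, with 32, Cntnap5a and Cntnap5b, neural adhesion genes, with 22 and 20, and Lrrc4c, which encodes a netrin-G ligand, with 21, stand in gene deserts. Each had 2487 to 3615 kb of territory and 7.28 to 8.85 members per Mb, against 5.44 for all territory. Snurf (32), Alkbh8 (30), 9530057J20Rik (26), Gm15319 (23) and Gm21119 (21) had 83.9 to 157 per Mb through the clusters above. Olfr161 (29 members, 46.8 per Mb) lay at the start of chromosome 16. By density, among genes with at least 5 members, Gm40363 came first with 476 per Mb, then Slc16a14 with 286 and Pdia4 with 264.

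Genes of the macrophage programme had 3.43 members per Mb of the far territory nearest to them, against 5.44 over all far territory. Of 23 macrophage transcription factor and identity genes with far territory, 11 (47.8%) were nearest to a member, with 23 members in all. That share was above the 23.1% of all genes with far territory, while the density was below that of all territory. The median territory of these genes was 114 kb, against 26.4 kb for all genes with far territory. Housekeeping and stromal genes (33.3% each) and genes of unrelated tissues (36.4%) were also above 23.1%, while lymphoid and granulocyte markers were not (20.0%). The part of territory size in these shares was not tested. Mef2c, a MADS-box factor gene, had 5, and Zeb2, a zinc finger repressor gene, and Cebpb, a C/EBP factor gene of myeloid cells, had 3 each. Those of Cebpb lay 17450 to 85122 bp away, had folds of up to 3.36 and came to 26.4 per Mb in a territory of only 114 kb. Klf4, Ets2 and Tfec, all transcription factor genes, had 2 each. Cebpa had 42.9 kb of far territory and no member. Csf1r, the M-CSF receptor gene, had only 0.252 kb and no member, and Spi1, which encodes PU.1, had no far territory. At 5.44 members per Mb, territories this small can lack a member.

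The lists for the response to R848 had 0 to 4.80 members per Mb, against 5.44 over all far territory, and 0 to 20% of their genes were nearest to a member, against 23.1%. Of 23 cytokine and chemokine genes with territory, Il12a, an IL-12 subunit gene, had 2 members and Ccl9 had 1 (fold 4.58), in all 2.51 per Mb. Il6 and Il1b had 103 and 50.5 kb of territory and no member, and Tnf had no territory. Of 22 NF-kB, AP-1 and feedback genes, Nfkbiz, an inducible nuclear IκB gene, had 2, and Fos and Atf3 had 1 each (2.17 per Mb). Nfkbia had none in 51.8 kb of territory. Among 15 Toll-like receptor signalling genes, 3 had members (4.80 per Mb): Map3k7, the TAK1 kinase gene, with 10 at 11129 to 1429323 bp, Tlr4 with 3 and Tlr1 with 2. Tlr7, the receptor gene for R848, had 9.53 kb of territory and none. None of 11 interferon-stimulated genes had a member, in a total territory of 0.644 Mb. Kat8 itself had no far territory.

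Lists of genes with other roles had 3.96 to 6.78 members per Mb. Of their genes with far territory, 20.0% to 36.4% were nearest to a member, against 23.1% of all such genes. Housekeeping genes had 4 of 12 (6.78 per Mb), among them Rpl14 and Ndufa10 with 2 each and Ndufv1 and Rps24 with 1. Lymphoid and granulocyte markers had 3 of 15 (4.2 per Mb), led by Gata3 with 7, with Ebf1 and Siglech beside it. Stromal markers had 6 of 18 (3.96 per Mb), with Cdh5, the endothelial cadherin gene, at 3, Col3a1 and Dcn at 2 and Twist1, Col1a2 and Col5a2 at 1. Genes of unrelated tissues had 8 of 22 (4.52 per Mb), including the liver gene Apob (7), Sox2 (6), the insulin genes Ins1 (4) and Ins2 (2), and Syt1 (1). Counts of 0 to 28 members in territories of 0.644 to 6.70 Mb per list do not order these lists.

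Non-coding genes and pseudogenes held 952 members (12.7%, 12 to 13.5) by position of the summit, and they cover 13.3% of the far territory. The lncRNA genes held 698 (9.33%, 8.68 to 10) and cover 11%. Pseudogenes held 221 (2.95%, 2.58 to 3.36) and cover 1.70%. Immune receptor loci held 39 (0.521%, 0.371 to 0.712) and cover 0.615%. Of these 39 members, 21 lay in Igk, 11 in Igh and 7 in Tcra, with Tcrd inside the latter. For far peaks of the untreated list only, the lncRNA, pseudogene and immune receptor shares were 11.8%, 3.20% and 0.760%. Shared far peaks were thus found in lncRNA genes slightly under the share such genes take of the territory, and in pseudogenes above it.

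The lncRNA genes with the members of highest fold were Gm32035 on chromosome 4 (9.38, and 10.8 after R848), Gm46633 on chromosome 18 (9.38 and 7.74), LOC108168760 on chromosome 2 (8.84 and 12.1), Gm41421 on chromosome 16 (8.24 and 8.54), Gm51762 on chromosome 10 (7.71 and 5.21) and Snhg14 (7.37 and 7.14). Among pseudogenes they were Gm3029 (6.52 and 7.97), Gm9685 (5.79 and 3.68), Gm51539 and Mup-ps1 (5.72 each, with 6.36 and 5.25), Gm10060 (5.56 and 5.02) and Gm46496 (5.44 and 4.55). The member of highest fold in an immune receptor locus (chr12:113424289-113425356, inside Igh) had a fold of 8.87. These loci are rearranged in lymphocytes during their development.

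Small RNA genes take up little of the far territory. The summits of 2 members (0.0267%) lay in snoRNA genes, Gm24760 (3.62 and 3.44) and Snord116l3 (2.85 and 2.83), both inside the Snhg14 clusters, and small RNA genes other than microRNA and tRNA genes made up 0.0109% of territory. None lay in a microRNA or tRNA gene, which allows a share of up to 0.0493% for each (exact binomial bound), in 0.00173% and 0.0011% of territory. Within 1000 bp of tRNA genes there were 8 members (0.107%), in 0.0253% of territory, and within 1000 bp of the other small RNA genes 39 (0.521%), in 0.192% of it. Far peaks of the untreated list only had 0.0492% within 1000 bp of tRNA genes. Near the other small RNA genes they had 0.536%, about the share of members. The strongest of the 8 members near tRNA genes (8.24 and 8.54, 117 bp from n-TTcgt5 on chromosome 16) lay inside Gm41421. Another 4 of the 8 belonged to a cluster of 7 near n-TKctt12 and n-TKctt13 on chromosome 17.

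A few lncRNA genes of known role were looked up after the values were seen. A member inside Tsix, the antisense transcript of Xist, had folds of 5.04 and 4.14 (chrX:103455650-103456278). Lncpint, a p53-induced lncRNA gene, held a member of 6.38 and 5.67. Malat1 had 2 within 5000 bp, of 3.42 and 2.90 in the untreated list. Neat1, which scaffolds paraspeckles, held one of 2.11 whose background of 12.7 was above the usual level, and Mir17hg, the host of a microRNA cluster, had one nearby of 2.29 with a −log10 q of 0.163.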

How the data were processed

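The data are 2 lists of KAT8 CUT&Tag peaks, 1 per library, from untreated macrophages and from macrophages given R848 for 2 h, grouped by the treatment label. Per the submitters' processing notes, mm10, DiffBind, MACS2 2.2.7.1 and Bowtie 0.12.8 were used, with no roles given. Caller settings, and whether a control library was used, are not given here. The deposited values of a peak are its summit offset, −log10 q-value, −log10 p-value, fold (a ratio to local background) and a score. The score was not used.

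The members and gene lists were chosen with earlier results of these data known. Overlaps of at least 1 bp were computed in Python 3.11.15 and checked with bedtools 2.31.1, and the code was tested on simulated data. Genes, promoters and miRNAs came from RefSeq tables of GRCm38.p6, with 21887 protein-coding genes on 21 chromosomes. Summit fragments (n) and local background (b) were solved from fold = (n + 1) / (b + 1) and the Poisson tail of the deposited −log10 p, to within 0.05, in 99.990% (untreated) and 99.993% (R848) of cases; 3 members were not solved. Shares have 95% exact (Clopper-Pearson) intervals for counting error. Peaks of 1 library are not replicates, and precision is limited by the 1 library per group.

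Genes are named by rule: the 10 members of highest fold, the 10 genes nearest to most members, the 3 densest, the 8 largest clusters, the 5 farthest members, the 3 members at each threshold, up to 6 genes per list and per non-coding type, and 10 genes whatever their values. One gene chosen by it is not reported here. Genes outside it are said to be picked. The alternatives were other overlaps, q thresholds, list lengths, distances, gene types, base lists and joining distances. Members at the lowest background only, members without large clusters and the spacing result were added after the data were seen.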

Additional observations from a re-analysis of the deposited data

How the results depend on the processing

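Cited here are the values that moved beyond their counting interval, or by over 1.5 times for a count; the other values, and their direction, did not move that far under these settings. With overlap of 50% of both peaks there were 4609 members, 17.9% of far peaks were shared, 25.9% of members had a neighbour within 12.5 kb and the median width was 398 bp. With summits within 250 bp of each other the shared percentage was 23.6%, the share with a neighbour 31.4% and the width 361 bp. With a −log10 q of at least 1.3 in both lists there were 3250 members, 36.4% shared, 26.1% with a neighbour, a width of 485 bp, 1772 nearest genes and 20.0% of gaps of 5000 to 6200 bp. With at least 5 these were 475, 45.3%, 25.1%, 618 bp, 349 and 4.40%, the ratio of X to autosomes was 0.703 and 15.4% of members lay in non-coding genes; fewer members remain there by construction. Lists of equal length gave 31.8% shared, 38.6% with a neighbour and 391 bp. A distance of more than 50000 bp gave 29.8% shared, 11.8% in non-coding genes, 1765 nearest genes and 33.6% of gaps. Genes of every type gave 30.3% shared, 38.8% with a neighbour and 34.7% of gaps; the share in non-coding genes is then void. The R848 list as base gave 34.0% and 369 bp. Joining at 5000 or 25000 bp gave 21.6% and 47.1% with a neighbour. At the lowest background only, a setting added after the data were seen, the ratio of X to autosomes was 1.29 over all far territory. There 24.3% of members had a neighbour and 43.5% of gaps were 5000 to 6200 bp long. Without clusters of 5 or more, also added then, these shares were 37.8% and 34.2%. The cause of these shifts was not tested. Of the pairs, 20.3% reached a q of 0.05 in neither list. No paired analysis was possible because each group has 1 library and no value comes from a test.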
